A study of Rattus norvegicus with 24 samples.

Results

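The 5 Ensembl gene IDs whose RNA was called lower by the most soon after induction of the endoplasmic reticulum stress sensor IRE1α were followed through 24 libraries of rat INS1 cells. They are ENSRNOG00000047573, ENSRNOG00000024578, ENSRNOG00000002956, ENSRNOG00000008431 and ENSRNOG00000014751, and they were chosen by the log2 change between uninduced and induced libraries at 4 h among the IDs called lower there. The count table holds 26689 IDs, and all 5 passed the filter on low counts, which kept 13760. INS1 cells derive from a rat insulinoma and secrete insulin. All cells carried a mouse IRE1α (Ern1) transgene under doxycycline control. Uninduced cells had vehicle and no doxycycline, induced cells had doxycycline and vehicle, and the other groups had doxycycline with PAIR1 or with KIRA9. Each of these 4 treatments was sampled at 4 h and at 24 h, with 3 libraries in each of the 8 groups. No group had a compound without doxycycline, doses are not given in the labels, and whether the line is a single clone is not stated there either.

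IRE1α spans the endoplasmic reticulum membrane and carries a kinase and an RNase domain on its cytosolic side. When the kinase domains assemble and become active, the RNase cuts the Xbp1 mRNA so that it can be spliced into the message of a transcription factor. With stronger activation the same RNase also cuts other mRNAs, many of them at the endoplasmic reticulum, a process called regulated IRE1-dependent decay. Beta cells load this compartment heavily with proinsulin, and sustained IRE1α activity is known to lower insulin messages and to favour cell death there. KIRA compounds bind the kinase pocket and attenuate the RNase, and PAIR compounds are described in the title of the series as partial antagonists.

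The table carries no gene symbols, and 0 of its IDs matched the RefSeq gene table used here. The products of the 5 IDs, their gene structures and their sequences are therefore not described, whether they are substrates of the RNase was not tested, and no list of decay substrates, XBP1 targets or cell type markers was counted. The transgene and the beta cell identity of the line were not checked for the same reason. Library totals ran from 12.6 to 23.8 M counts. In 6 libraries, spread over 5 groups, 41 IDs, picked because they were higher in each of these 6 than in any other library, took 0.667 to 0.744% of counts, against 0.0705 to 0.0853% in the other 18, and 0 of the 5 IDs were among the 41. The time characteristic of the 6 induced vehicle libraries contradicts both their title and the name of their count column. The title and the column name give the same time, which was used. Levels are given as CPM, counts per 1 M counts of a library after TMM scaling, and are not comparable between IDs because transcript lengths are not known. Fewer cells that express an ID and less of its RNA per cell cannot be told apart in these bulk samples.

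At 4 h all 5 IDs stood lower in every induced library than in any uninduced library. They were chosen by the size of the fall between these groups, so these values are a description without a test. ENSRNOG00000024578 was at 91.5, 95.0 and 94.1 CPM in the uninduced libraries and at 62.5, 64.6 and 65.4 CPM in the induced ones, a log2 difference of -0.54 ± 0.05 (SE). ENSRNOG00000002956 was at 57.6, 57.5 and 56.9 CPM without and at 37.1, 37.4 and 43.8 CPM with induction, a log2 difference of -0.54 ± 0.06. The uninduced libraries lay within 1 CPM of each other here, and the highest induced library remained well below them. ENSRNOG00000008431 was at 31.3, 30.9 and 27.2 CPM and at 20.2, 22.6 and 19.3 CPM, a log2 difference of -0.53 ± 0.08. ENSRNOG00000014751 was at 40.5, 35.7 and 37.9 CPM and at 24.5, 27.5 and 27.6 CPM, a log2 difference of -0.52 ± 0.07. Their induced levels were 1.44 to 1.46 times below the uninduced ones. That these 4 values are so close follows from the choice, which took neighbouring ranks of this same value.

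ENSRNOG00000047573 stood apart from the other 4 in size. Its uninduced libraries at 4 h were at 6.87, 10.9 and 9.59 CPM (143, 162 and 144 counts) and its induced libraries at 0.344, 0.808 and 0.418 CPM (7, 12 and 7 counts), a log2 difference of -4.15 ± 0.57 (SE). The 3 induced libraries were the lowest of all 24 for this ID. The 5 IDs were the first 5 of 36 IDs called lower at 4 h, which is 0.262% of the 13760 tested. Libraries that did not overlap, with induction lower, occurred in 5.99% of IDs. The limit between inside and outside was narrow: the fifth ID was at -0.52 on the log2 scale and the sixth at -0.51, and 253 IDs had a lower fitted value than the fifth without being called.

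**Figure D1:**
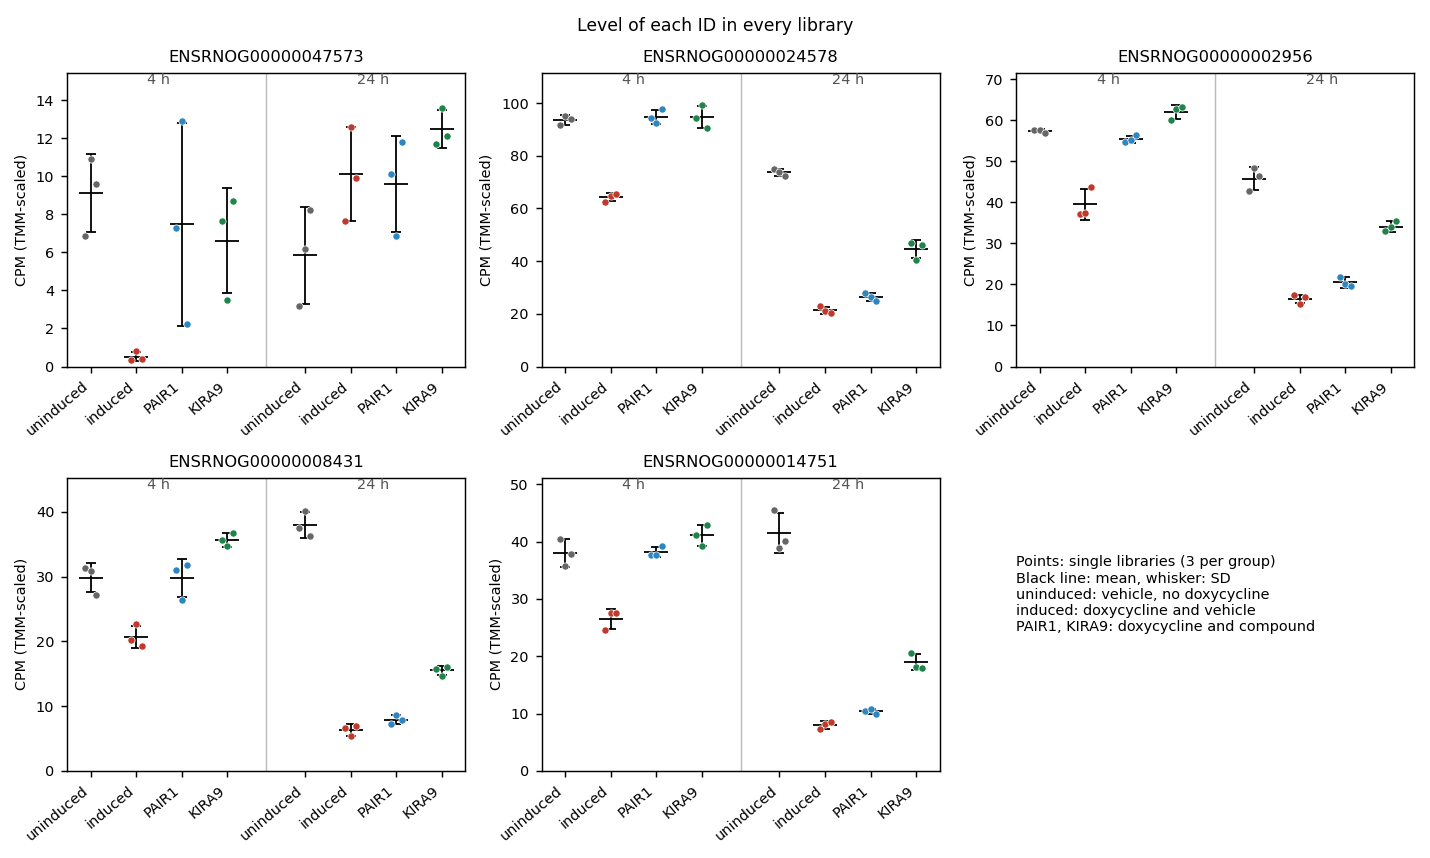
Level of each of the 5 IDs in TMM-scaled CPM (vertical axis, linear, from 0) in each of the 8 groups at 4 h and 24 h (horizontal axis); points are single libraries, black lines the mean and whiskers the SD of 3 libraries. In 4 panels the induced and PAIR1 libraries at 24 h lie lowest, whereas ENSRNOG00000047573 is lowest in the induced libraries at 4 h, at 0.344 to 0.808 CPM, and scatters widely elsewhere.

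At 24 h, in libraries that had no part in the choice, 4 of the 5 IDs fell with induction and ENSRNOG00000047573 did not pass the test. Among all IDs tested, 32.0% were called lower in this comparison, so a fall at this time was common. ENSRNOG00000008431 was at 37.5, 40.2 and 36.2 CPM in uninduced and at 6.64, 5.34 and 6.97 CPM in induced cells, a fall of 5.98 times (log2 change -2.58 ± 0.09 SE, adjusted p = 9.9e-17 in edgeR's quasi-likelihood test). ENSRNOG00000014751 was at 45.5, 38.9 and 40.1 CPM without and 7.29, 8.14 and 8.59 CPM with induction (log2 change -2.38 ± 0.08, adjusted p = 1.8e-17). The lowest uninduced library of either ID was more than 4 times its highest induced library. ENSRNOG00000024578 fell from 75.0, 73.8 and 72.3 CPM to 22.8, 20.9 and 20.2 CPM (log2 change -1.79 ± 0.06, adjusted p = 7.5e-18). ENSRNOG00000002956 fell from 42.7, 48.3 and 46.5 CPM to 17.3, 15.3 and 16.9 CPM (log2 change -1.47 ± 0.07, adjusted p = 4.4e-15). The libraries of these 4 did not overlap, as in 32.7% of all IDs with induction lower. With the conflicting time label, which brings in the induced libraries that chose the IDs, the 4 changes were smaller, at -0.88 for ENSRNOG00000008431, -0.65 for ENSRNOG00000014751, -0.20 for ENSRNOG00000024578 and -0.21 for ENSRNOG00000002956, and each was still called.

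The size of the fall at 24 h differed among the 4 IDs. The 95% interval of the log2 change ran from -2.78 to -2.39 for ENSRNOG00000008431 and from -2.55 to -2.22 for ENSRNOG00000014751, which overlap. It ran from -1.91 to -1.67 for ENSRNOG00000024578 and from -1.61 to -1.33 for ENSRNOG00000002956, which overlap neither each other nor the first pair. The median log2 change was -0.65 over the 4401 IDs that fell at 24 h, and each of the 4 fell further than at least 87.2% of them. Over all 13760 IDs the median change was 0.00, and over the 5 IDs it was -1.79. TMM scaling holds the typical change near 0, so the first value is set by the scaling. A change of most RNAs together would not be seen in these values and was not tested.

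ENSRNOG00000047573 was at 3.17, 6.16 and 8.20 CPM in uninduced and at 7.66, 12.6 and 9.89 CPM in induced cells at 24 h. The groups overlapped, with the induced mean the higher one (log2 difference 0.79 ± 0.42 SE, 95% interval -0.08 to 1.66, adjusted p = 0.11). Without uninduced replicate 3 the difference was 1.12 and was called at an adjusted p of 0.048, within a range of 9.0e-05 to 0.37 over the alternatives. The lower end of that range comes from the conflicting time label, which puts the induced libraries of the early fall into the 24 h comparison and gives -3.50. Uninduced cells had no doxycycline, so doxycycline and the transgene cannot be told apart in these comparisons.

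Cells given doxycycline together with a compound had levels near the uninduced ones at 4 h. These values share libraries with the choice of the IDs, the induced ones in particular, and are given without a test. For all 5 IDs every PAIR1 library and every KIRA9 library lay above every induced library, where 10.4% of all IDs did so with PAIR1 and 14.0% with KIRA9. ENSRNOG00000024578 was at 94.2, 92.3 and 97.6 CPM with PAIR1 and at 94.3, 99.1 and 90.5 CPM with KIRA9, and both sets overlapped the uninduced libraries. ENSRNOG00000014751 was at 37.7, 37.7 and 39.2 CPM with PAIR1, inside the uninduced range, and at 41.1, 39.3 and 42.9 CPM with KIRA9. The levels of these 2 IDs with either compound were thus within 0.11 of the uninduced ones on the log2 scale. ENSRNOG00000002956 was at 54.7, 55.2 and 56.3 CPM with PAIR1, just under the uninduced libraries, and at 60.0, 62.8 and 63.1 CPM with KIRA9, above them. ENSRNOG00000008431 was at 31.0, 26.4 and 31.8 CPM with PAIR1, the uninduced level, and at 35.7, 34.7 and 36.8 CPM with KIRA9, above every uninduced library. KIRA9 libraries lay wholly above the uninduced ones in 13.8% of all IDs and PAIR1 libraries wholly below them in 9.16%.

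ENSRNOG00000047573 was at 7.29, 12.9 and 2.25 CPM with PAIR1 and at 7.62, 3.52 and 8.72 CPM with KIRA9 at 4 h. Its lowest treated library held 42 counts, still more than the 12 counts of its highest induced library. Both treated groups overlapped the uninduced libraries and each other.

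The direct comparison of PAIR1 with KIRA9 at 4 h uses neither group of the choice and was tested. Of the 5 IDs, 0 were called by edgeR, 0 were called by DESeq2 and 2 had an unadjusted p below 0.05 in edgeR. Over all 13760 IDs 2.06% were called, and 1695 had an unadjusted p below 0.05. ENSRNOG00000008431 was lower with PAIR1 by 0.26 ± 0.08 on the log2 scale (95% interval -0.43 to -0.09, adjusted p = 0.12), and ENSRNOG00000002956 differed by -0.16 ± 0.06 (interval -0.29 to -0.03, adjusted p = 0.23). For ENSRNOG00000014751 the interval ran from -0.25 to 0.04 and for ENSRNOG00000024578 from -0.11 to 0.11, while for ENSRNOG00000047573 it was wide, from -0.72 to 1.04. PAIR1 libraries lay wholly below KIRA9 libraries for 3 of the 5 IDs, as in 9.08% of all IDs.

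At 24 h the 4 IDs were no longer near the uninduced level in cells given a compound. With PAIR1 all 4 rose above induced cells by 1.23 to 1.30 times and with KIRA9 by 2.07 to 2.45 times, but all 4 remained below uninduced cells with either compound. ENSRNOG00000008431 was at 7.29, 8.61 and 7.81 CPM with PAIR1 and at 15.7, 14.7 and 16.1 CPM with KIRA9, beside 5.34 to 6.97 CPM in induced and 36.2 to 40.2 CPM in uninduced libraries. ENSRNOG00000014751 was at 10.5, 10.8 and 9.91 CPM with PAIR1 and at 20.6, 18.2 and 18.0 CPM with KIRA9. The 4 treatments did not overlap for either ID. ENSRNOG00000024578 was at 28.0, 26.2 and 24.9 CPM with PAIR1 and at 46.9, 40.6 and 46.2 CPM with KIRA9. ENSRNOG00000002956 was at 21.9, 20.2 and 19.5 CPM with PAIR1 and at 33.0, 33.9 and 35.5 CPM with KIRA9. The order was induced, PAIR1, KIRA9 and uninduced from low to high in all 4, without overlap between neighbours. PAIR1 libraries lay wholly above induced ones in 32.5% of all IDs and wholly below KIRA9 ones in 18.0%, and KIRA9 libraries lay wholly below uninduced ones in 16.7%.

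Against induced cells, 4 of the 5 IDs rose with PAIR1, where 30.0% of all IDs and 82.5% of the 4401 IDs lowered by induction did, by log2 changes of 0.30 ± 0.06 (SE) for ENSRNOG00000024578, 0.31 ± 0.07 for ENSRNOG00000002956, 0.32 ± 0.10 for ENSRNOG00000008431 and 0.38 ± 0.09 for ENSRNOG00000014751. Their adjusted p values were 0.00015, 0.00050, 0.012 and 0.00065 in the same order. With KIRA9 4 of the 5 rose, where 32.3% of all IDs and 87.1% of the lowered IDs did, by 1.06 ± 0.06, 1.05 ± 0.07, 1.29 ± 0.10 and 1.25 ± 0.08, each with an adjusted p of at most 6.7e-11. Both comparisons share the 3 induced libraries. A rise with either compound was thus called in most lowered IDs. These were picked as low in the same induced libraries, which favours a rise. Over the 4401 the median change was 0.51 with PAIR1 and 0.63 with KIRA9. The 4 IDs lay below that median with PAIR1 and above it with KIRA9. Each of the 4 had fallen further than at least 87.2% of the 4401, so these rises do not follow falls of like size.

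The call of this rise with PAIR1 changed with the libraries included for 3 of the 4 IDs. Without the 6 libraries that share the set of high IDs, which leaves 1 induced library at 24 h, assumed to vary like the other groups, 1 of the 5 IDs was called, ENSRNOG00000024578 (adjusted p = 0.011). The others were then at 0.22 (adjusted p = 0.070) for ENSRNOG00000002956, 0.22 (adjusted p = 0.28) for ENSRNOG00000008431 and 0.26 (adjusted p = 0.14) for ENSRNOG00000014751, each the highest adjusted p over the alternatives of that ID. The lowest over the alternatives were 4.5e-14, 1.1e-10, 9.0e-11 and 6.4e-12 in the same order, all with the conflicting time label, under which the direction reversed. ENSRNOG00000008431 also lost its call without induced replicate 2 (0.22, adjusted p = 0.093), without PAIR1 replicate 2 (0.26, adjusted p = 0.073) and when only the compared groups were fitted (0.31, adjusted p = 0.10).

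**Figure D2:**
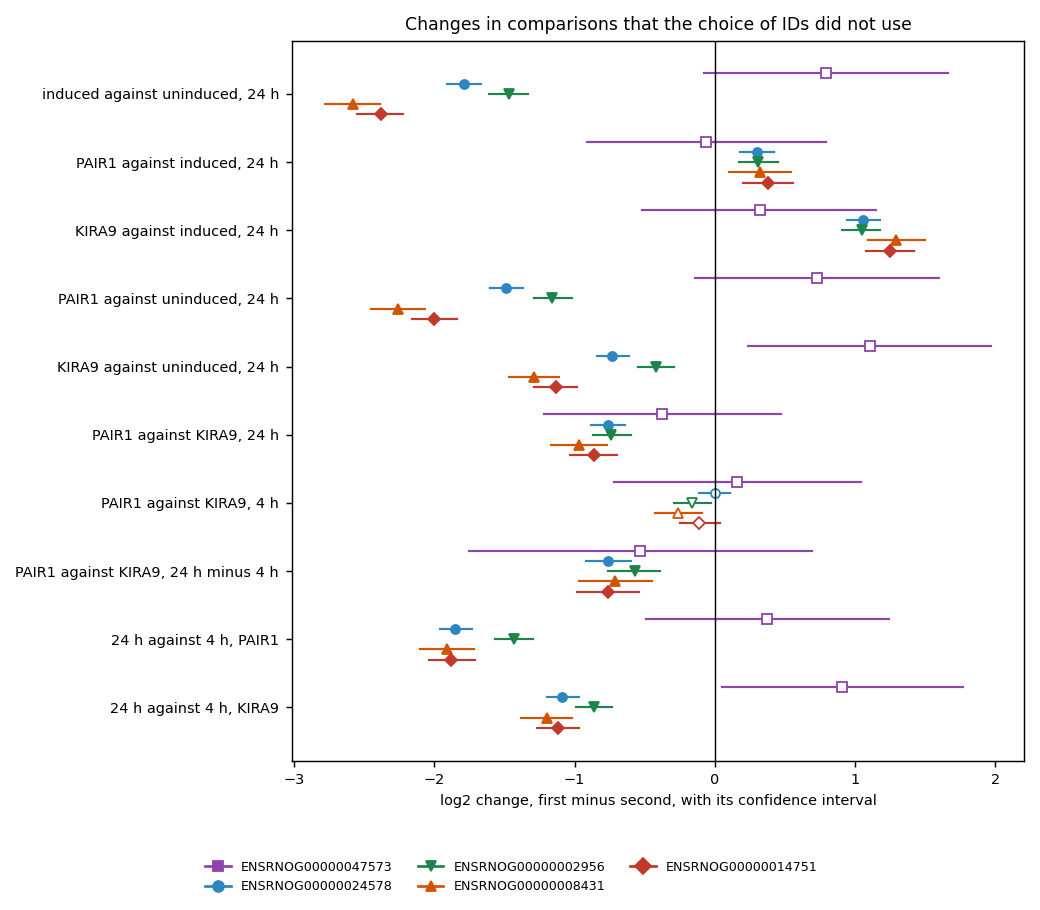
Log2 change, first group minus second (horizontal axis), with its 95% interval for each of the 5 IDs in the 10 comparisons that the choice of IDs did not use (vertical axis); filled symbols passed an adjusted p below 0.05 and open symbols did not. The other 4 IDs lie on one side of 0 in each comparison except PAIR1 against KIRA9 at 4 h, and the intervals of ENSRNOG00000047573 are the widest.

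Against uninduced cells at 24 h, 4 of the 5 IDs remained lower with PAIR1, where 14.3% of all IDs and 38.0% of those lowered by induction were called lower, and 4 of the 5 with KIRA9, where 10.8% and 18.2% were. The log2 change with PAIR1 was -2.26 ± 0.09 (SE) for ENSRNOG00000008431, -2.00 ± 0.08 for ENSRNOG00000014751, -1.49 ± 0.06 for ENSRNOG00000024578 and -1.16 ± 0.07 for ENSRNOG00000002956, with adjusted p values of at most 1.8e-12. With KIRA9 it was -1.29 ± 0.09, -1.13 ± 0.07, -0.73 ± 0.05 and -0.42 ± 0.06 in the same order, with adjusted p values of at most 2.0e-05. ENSRNOG00000002956 came closest to its uninduced level, at 34.1 ± 1.28 CPM (SD, n = 3) with KIRA9 against 45.8 ± 2.86 CPM. ENSRNOG00000008431 stayed furthest, at 15.5 ± 0.715 CPM against 38.0 ± 2.01 CPM. The IDs lowered by induction were picked with these same uninduced libraries, which favours a lower value with a compound.

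ENSRNOG00000047573 was not called in any of these comparisons at 24 h. It was at 10.1, 6.84 and 11.8 CPM with PAIR1 and at 11.7, 13.6 and 12.1 CPM with KIRA9. The PAIR1 libraries overlapped both the induced and the uninduced ones, and the KIRA9 libraries lay wholly above the uninduced ones, as in 18.0% of all IDs. Against uninduced cells the log2 difference with KIRA9 was 1.11 ± 0.42 (SE, 95% interval 0.24 to 1.97, adjusted p = 0.058), which missed the threshold, with a range of adjusted p from 0.030 to 0.23 over the alternatives. With PAIR1 it was 0.73 (interval -0.14 to 1.60, adjusted p = 0.22). Against induced cells the intervals ran from -0.91 to 0.79 with PAIR1 and from -0.52 to 1.15 with KIRA9.

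The place of each compound library between uninduced and induced cells was expressed as the percent of the 24 h fall that remained, on the log2 scale, with 0% at the uninduced mean and 100% at the induced mean. With PAIR1 ENSRNOG00000008431 retained 87.3 ± 4.65% of its fall (SD, n = 3), ENSRNOG00000014751 84.0 ± 2.75%, ENSRNOG00000024578 82.8 ± 4.86% and ENSRNOG00000002956 78.6 ± 5.96%. With KIRA9 they retained 49.7 ± 2.58%, 47.6 ± 4.57%, 40.6 ± 6.37% and 28.8 ± 3.65%. No PAIR1 library overlapped a KIRA9 library for any of the 4, the lowest PAIR1 library being at 72.0% and the highest KIRA9 library at 52.6%. The median over the 4401 IDs lowered at 24 h was 22.6% with PAIR1 and 4.05% with KIRA9. Each of the 4 IDs retained more than at least 93.4% of those IDs with PAIR1 and more than at least 78.0% with KIRA9. These percents use the uninduced and induced means in every library and are descriptions. The 4401 IDs were picked as lowered in the same uninduced and induced libraries that set this scale. At least 87.2% of them fell less than each of the 4, so the ranks do not compare falls of like size.

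**Figure D3:**
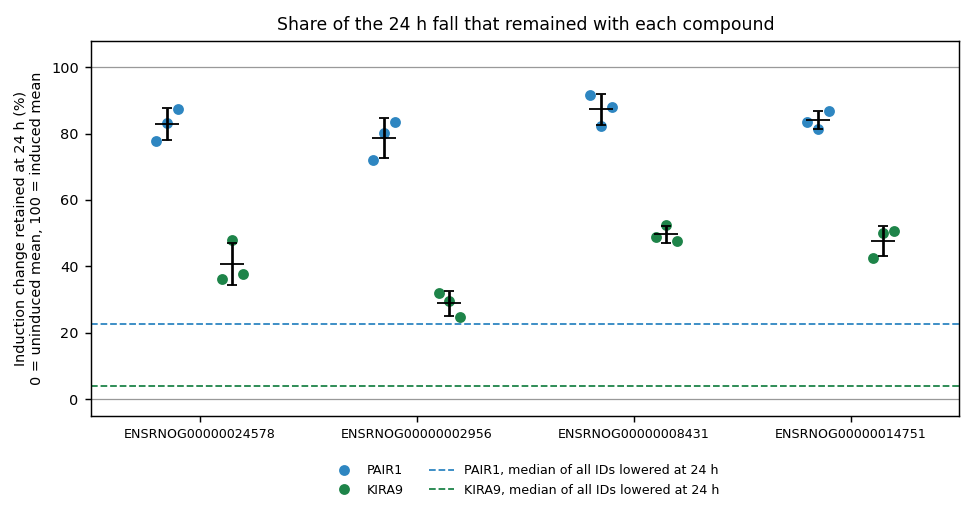
Percent of the induction change at 24 h that remained in each PAIR1 or KIRA9 library (vertical axis, 0 = uninduced mean, 100 = induced mean, log2 scale) for the 4 IDs that fell; points are libraries, black lines the mean and whiskers the SD of 3. The dashed lines mark the medians over all 4401 IDs lowered at 24 h, 22.6% with PAIR1 and 4.05% with KIRA9, and all points of the 4 IDs lie above the line of their compound.

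The compounds differed from each other at 24 h in the same 4 IDs. All 4 were lower with PAIR1 than with KIRA9, where 10.3% of all IDs tested and 29.7% of the IDs lowered by induction were. The log2 difference was -0.97 ± 0.10 (SE) for ENSRNOG00000008431, -0.86 ± 0.08 for ENSRNOG00000014751, -0.76 ± 0.06 for ENSRNOG00000024578 and -0.74 ± 0.07 for ENSRNOG00000002956, with adjusted p values from 6.4e-10 to 6.8e-08. The median over the IDs lowered by induction was -0.11. For ENSRNOG00000047573 the difference was -0.38, with an interval from -1.22 to 0.47. With no doses in the labels, the treatments are compared as applied.

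The change of this difference with time was tested directly. From 4 h to 24 h the difference of PAIR1 from KIRA9 became more negative in 4 of the 5 IDs, as it did in 6.45% of all IDs, by -0.76 ± 0.08 (SE, adjusted p = 1.9e-07) for ENSRNOG00000024578, -0.76 ± 0.11 (adjusted p = 2.4e-05) for ENSRNOG00000014751, -0.71 ± 0.13 (adjusted p = 0.00044) for ENSRNOG00000008431 and -0.57 ± 0.09 (adjusted p = 9.4e-05) for ENSRNOG00000002956. Between the same times the 4 IDs fell in cells given doxycycline with a compound. With PAIR1 the falls had log2 sizes of -1.43 to -1.91, where 17.4% of all IDs fell, and with KIRA9 of -0.86 to -1.20, where 13.9% did. ENSRNOG00000024578 went from 94.7 ± 2.72 to 26.4 ± 1.60 CPM with PAIR1 (adjusted p = 4.4e-17) and from 94.7 ± 4.29 to 44.6 ± 3.45 CPM with KIRA9 (adjusted p = 9.6e-13). ENSRNOG00000047573 was not called over time with either compound, at 0.37 with PAIR1 (interval -0.49 to 1.24, adjusted p = 0.53) and 0.91 with KIRA9 (interval 0.05 to 1.77, adjusted p = 0.11). Its KIRA9 libraries at 24 h nonetheless lay wholly above those at 4 h, as in 21.8% of all IDs.

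Uninduced cells also changed between the times, in a different direction from ID to ID, and these values share the uninduced 4 h libraries with the choice of the IDs. ENSRNOG00000024578 and ENSRNOG00000002956 were lower at 24 h, by log2 differences of -0.34 and -0.33, and their libraries did not overlap, as in 18.3% of all IDs. ENSRNOG00000008431 was higher at 24 h, by 0.35, again without overlap, as in 17.4% of all IDs. ENSRNOG00000014751, with a difference of 0.13, overlapped. In induced cells the 4 IDs were lower at 24 h than at 4 h by 1.25 to 1.73 on the log2 scale. Their libraries did not overlap, as in 33.8% of all IDs. ENSRNOG00000047573 was instead higher by 4.29, also without overlap, as in 33.4%. These values start from the induced 4 h libraries used in the choice, which favours a rise, and are given without a test.

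Ordered by mean level, the 4 IDs shared the lower end of the order. Downward it ran induced at 4 h, KIRA9 at 24 h, PAIR1 at 24 h and induced at 24 h. Neighbours did not overlap from induced at 4 h downward. The share of all IDs with this order was not counted, and the induced libraries at 4 h had a part in the choice. At the upper end the order varied. For ENSRNOG00000024578 the uninduced, PAIR1 and KIRA9 groups at 4 h lay together at 93.5 to 94.7 CPM. For ENSRNOG00000008431 and ENSRNOG00000014751 the uninduced group at 24 h was highest and overlapped KIRA9 at 4 h, and the uninduced and PAIR1 groups at 4 h overlapped each other. ENSRNOG00000002956 was highest with KIRA9 at 4 h, and its uninduced libraries at 24 h overlapped the induced ones at 4 h. For ENSRNOG00000047573 every neighbouring pair of groups overlapped except the last, with induced cells at 4 h alone at the bottom.

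The spread between replicates also set ENSRNOG00000047573 apart. Its coefficient of variation within groups ran from 8.04 to 71.2%, with a median of 33.8%, against medians of 3.70 to 7.80% for the other 4 IDs. The biological coefficient of variation estimated by edgeR, the replicate spread beyond counting noise, was 36.1%, higher than in 97.0% of all IDs kept and than in 97.5% of the 1391 IDs of similar level. For the other 4 it was 4.55 to 6.52%, beside a median of 6.64% over all IDs. The IDs had to be called lower at 4 h, which favours a small spread where the fall is small. These values are therefore partly set by the choice. The PAIR1 libraries of ENSRNOG00000047573 at 4 h differed by 5.73 times from lowest to highest. Its level in induced cells at 4 h rests on 7 to 12 counts per library, and the difference from uninduced cells ran from -4.56 to -3.89 on the log2 scale when single libraries were left out.

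**Figure D4:**
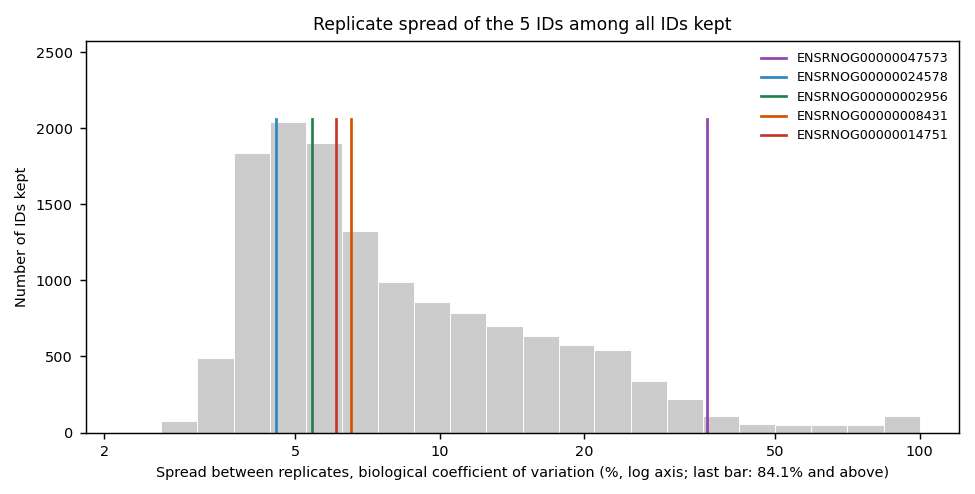
Number of IDs kept (vertical axis) by biological coefficient of variation in percent (horizontal axis, log scale), with vertical lines at the values of the 5 IDs; IDs above 84.1% are pooled in the last bar. The line of ENSRNOG00000047573, at 36.1%, lies far to the right of the other 4, which lie between 4.55 and 6.52%.

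Across the 24 libraries the log2 levels of the 4 other IDs followed each other, with Pearson r of 0.96 to 0.99 over their 6 pairs, whereas r with ENSRNOG00000047573 was -0.26 to -0.19. The points share their 8 groups, libraries and scaling, and they include the libraries at 4 h by which the IDs were chosen, so likeness to each other and to other IDs called lower at 4 h is partly set by that choice. After the group means were removed, r among the 4 was -0.17 to 0.33, so the high values came from differences between the groups. The nearest ID to ENSRNOG00000024578 and to ENSRNOG00000002956, among 10709 others with a mean of at least 5 CPM, was another of the 5 (r = 0.99). For ENSRNOG00000008431 and ENSRNOG00000014751 it was an ID outside the 5 (r = 0.99). The nearest ID to ENSRNOG00000047573 reached r = 0.71.

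The 2 IDs outside the 5 whose pattern was most like the mean standardised profile of all 5 were ENSRNOG00000030269 (r = 0.97) and ENSRNOG00000008274 (r = 0.96). Both belonged to the 36 IDs called lower at 4 h, which the use of the same libraries favours. ENSRNOG00000030269 was at 72.2 CPM in uninduced and 53.1 CPM in induced cells at 4 h, and at 24 h at 72.0 CPM in uninduced, 27.2 CPM in induced, 31.8 CPM in PAIR1 and 46.4 CPM in KIRA9 cells. ENSRNOG00000008274 was at 37.5 and 26.6 CPM at 4 h and at 37.2, 14.9, 15.7 and 23.5 CPM in the same order at 24 h. Both had the order of treatments of the 4 IDs at 24 h. ENSRNOG00000047573 did not have this order, although the mean profile includes it. By Spearman's rho they ranked 19 and 71 (0.89 and 0.85), and over the 8 group means they ranked 2 and 3 (r = 0.98 for each).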

How the data were processed

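Libraries were prepared from poly(A) RNA with NEBNext Ultra II reagents, per the labels' protocols. The authors deposited raw read counts for each Ensembl ID, and HISAT2 and HTSeq are named per the submitters' processing notes. Tool versions, strand setting, annotation and genome build are not given in the sources used here. How reads from overlapping or near-identical genes were counted is therefore not known. Columns were matched to samples by label.

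Low IDs were removed with filterByExpr (minimum count 10, 8 groups). TMM scaling and 1 quasi-likelihood model over the 24 libraries, without a replicate block, used edgeR 4.0.16 in R 4.3.3. P-values were Benjamini-Hochberg adjusted over 13760 IDs for every contrast, with calls at an adjusted p below 0.05. The SE is the log2 change divided by the root of F, in absolute size, and intervals are 95% t intervals. Log2 levels for correlations used a prior count of 0.5. The procedure was tested on simulated data.

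The 5 IDs and all lists were chosen with earlier results of these data known. Besides the 5, the 2 IDs most alike by correlation were named. Lists by symbol could not be applied. The alternatives were DESeq2 1.42.0 and its size factors, no filter, only the compared groups, a replicate block, the other time label, 6 libraries left out, each library left out in turn and an adjusted p below 0.01. The labels do not say whether replicates are separate cultures, so the p-values reflect variation among these samples alone, and it may be technical. Replicates of a group differed beyond sampling noise in every pair (chi-square per degree of freedom 3.52 to 18.5).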

Additional observations from a re-analysis of the deposited data

Results flagged for a closer look

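The difference between PAIR1 and KIRA9 changed between 4 h and 24 h by the test of that change itself in 4 of the 5 IDs. The change, 24 h minus 4 h, was -0.76 on the log2 scale for ENSRNOG00000024578, -0.57 for ENSRNOG00000002956, -0.71 for ENSRNOG00000008431 and -0.76 for ENSRNOG00000014751. In edgeR 6.45% of all IDs were called in this direction. All 4 were called in every alternative run.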

How the results depend on the processing

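Of 695 values of single IDs recomputed under an alternative, 672 kept their side of the threshold, 7 lost a call and 6 gained one. The remaining 10 reversed with a call before or after. Among the 672, values not called in either run could change sign. For ENSRNOG00000047573 the difference of PAIR1 from KIRA9 at 4 h ran from -0.50 to 0.60. All 10 reversals that involved a call came from the conflicting time label of the induced vehicle libraries, which exchanges the induced groups. With it the induction change at 24 h was -3.50 for ENSRNOG00000047573, and for the other 4 it kept its direction and call but shrank to -0.20 (ENSRNOG00000024578), -0.21 (ENSRNOG00000002956), -0.88 (ENSRNOG00000008431) and -0.65 (ENSRNOG00000014751). The difference of PAIR1 from induced cells was then 4.23 for ENSRNOG00000047573, -1.29 for ENSRNOG00000024578, -0.94 for ENSRNOG00000002956, -1.38 for ENSRNOG00000008431 and -1.35 for ENSRNOG00000014751, and that of KIRA9 was -0.52 for ENSRNOG00000024578, -0.21 for ENSRNOG00000002956, -0.41 for ENSRNOG00000008431 and -0.49 for ENSRNOG00000014751. The number of the 5 IDs called for PAIR1 against induced cells at 24 h was 1 without the 6 libraries, in place of 4. All other numbers of IDs called stayed within 1 of those reported.

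The calls gained were all of ENSRNOG00000047573: induction at 24 h without uninduced replicate 3, KIRA9 against uninduced cells without that library, without the filter and with only the compared groups, KIRA9 over time with only the compared groups, and KIRA9 against induced cells with the other time label (4.60). Same-numbered libraries gave no steady sign of pairing. Their correlations of deviations ran from -0.58 to 0.56, all above 0.1 in 1 of 16 comparisons. With 3 libraries per group these values cannot settle whether replicates were paired. With a replicate block all 50 values kept their call, for PAIR1 against KIRA9 at 24 h 4 of the 5 IDs.

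Over all IDs, counts moved by over 1.5 times with the other time label (8503 to 3787 for induction, 7556 to 4646 for PAIR1 and 8660 to 4218 for KIRA9 against induced cells, 24 h). Fitting only the compared groups gave 2070 in place of 3221 for KIRA9 against uninduced cells. Leaving out PAIR1 replicate 1 at 4 h gave 187 in place of 283 for PAIR1 against KIRA9. At an adjusted p below 0.01 the counts were 2063 of 3221, 1426 of 2243 (PAIR1 against KIRA9, 24 h), 167 of 283 (4 h), 2680 of 4070 (KIRA9 over time) and 770 of 1185 (change of the difference with time). The causes were not tested. Depth limits only ENSRNOG00000047573, at 7 to 12 counts in induced libraries at 4 h.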
